A study of Rattus norvegicus with 6 samples.

Results

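Metalloproteinases of the MMP, ADAM and ADAMTS families, the peptidase neprilysin and the inhibitors of these enzymes were followed in cultured rat testis cells of 2 ages. Members were taken by gene symbol alone: symbols that start with Mmp and a digit, with Timp or with Adam, which includes Adamts, and the genes Mme and Reck. The rule found 60 genes among the 14506 that the arrays name by a single symbol. The series holds 6 expression arrays of total RNA from rat cells labelled as Sertoli cells, 3 from 9-day-old and 3 from 21-day-old animals. Per the labels, the younger cells were still in their proliferative phase and the older ones past it. All cultures shared one preparation: decapsulated testes were digested to a cell suspension, the cells were grown in DMEM/F12 with 10% fetal bovine serum, and a change of medium after a further 24 hours served to purify them. The labels give neither strain nor treatment, and no source used here says whether each replicate is a separate animal or culture. The p-values therefore measure only how far these arrays scatter, which may be technical.

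MMPs are zinc enzymes that cut proteins of the extracellular matrix. Most are secreted as inactive proenzymes, a smaller set is anchored in the cell membrane, and tissue inhibitors of metalloproteinases (TIMPs) block them. ADAMs are membrane proteins, some of which release growth factors and receptors from the cell surface, whereas others have lost the protease activity and serve in adhesion, several of them on sperm. ADAMTS enzymes are secreted and act on proteoglycans and procollagens. In the testis, Sertoli cells sit on a basement membrane whose turnover, like that of their junctions, involves proteases and inhibitors of these families.

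Signals are log2 values, so a difference of 1 is a 2-fold difference, and the values of an array are given in the order of replicates 1, 2 and 3. The lower quartile of all genes lay between 2.87 and 2.95 in the 6 arrays and the median between 4.61 and 4.70. Detection calls were not used here, so whether a low signal exceeded background is unknown. The number of arrays limits the precision.

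The labelled cell type was checked against marker genes of the cells a testis culture can hold. Sertoli cell genes ranged from low to high signals. Amh, the hormone of immature Sertoli cells, lay between 3.07 and 3.49 in all arrays, and Fshr, the receptor for follicle-stimulating hormone, between 2.43 and 3.48. Both are defining genes of the cell type and lay low. The transcription factor genes Wt1 and Gata4 were between 6.94 and 7.44 and between 7.56 and 8.21, and the secretory genes Clu and Ctsl between 8.78 and 10.73 and between 9.63 and 10.38. Of 15 measured Sertoli markers 13 were higher at 21 days, and their mean lay between 5.08 and 5.26 at 9 days and between 5.37 and 6.17 at 21 days. That separation of the means rested on Tf, the transferrin gene, which was higher at 21 days by 3.59 (log2). The mean of the other 14 lay between 5.08 and 5.19 at 9 days and between 5.15 and 5.81 at 21 days, with overlap. Of the 15 markers 3 were higher at 21 days by at least 2-fold, against 0.427% of all genes that differed so in either direction. Besides Tf these were Shbg and Inha, with 1.16 and 1.03, or 0.46 and 0.43 without 21-day-old replicate 3. Higher without overlap were 4 of the 15, against 2.74% of all genes. Markers of smooth muscle and peritubular myoid cells, the contractile cells around the tubule, had a list mean of 10.36 and 10.22 in the arrays numbered 3 and between 8.47 and 9.18 in the others. Of these 10 markers 9 were lower at 21 days, with a median difference of -0.21 (log2), which was 0.069 without 9-day-old replicate 3 and 0.048 without 21-day-old replicate 2. The fibroblast list lay between 7.60 and 8.41, with 3 of 8 markers higher and 5 lower at 21 days. Differences of at least 2-fold were measured for 2 of the 8, against 0.427% of all genes. These 2 were higher at 21 days, the larger being Dpt with 1.50 (log2), while the lowest difference in the list was -0.73. In bulk RNA, fewer cells of a type and less RNA per cell cannot be told apart. Arrays of the same replicate number resembled each other at both ages, and the arrays numbered 3 stood apart, so values without them are given where they matter.

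**Figure D1:**
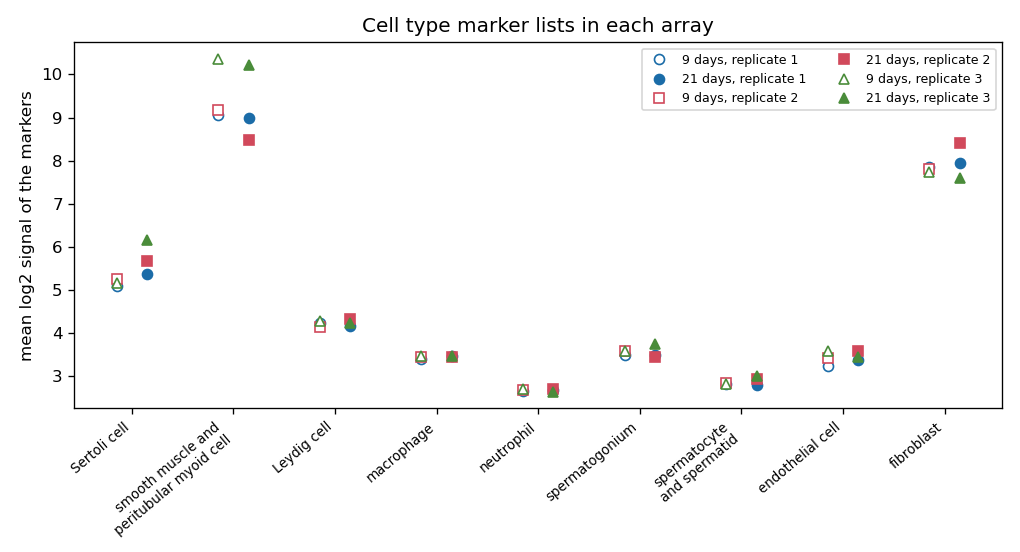
Mean log2 signal of 9 lists of cell type markers (vertical axis) in each of the 6 arrays, open symbols for 9 days and filled symbols for 21 days, with colour and shape for the replicate number. The smooth muscle and peritubular myoid list is highest in both arrays numbered 3, at 10.36 and 10.22, and the macrophage and neutrophil lists lie low and close together in all arrays.

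A few members differed widely between the ages and most did not. No member passed an adjusted p under 0.05 in limma, and of all 14506 genes none did either (0%). At an unadjusted p under 0.05 there were 3 members, against 2.97% of all genes. In the fit blocked on the replicate number 7 members did so, against 7.73% of all genes, and again no member with an adjusted p under 0.05. The SE values below are from the fit without the block. With the block some were far smaller, such as 0.11 against 0.43 for Mmp16 and 0.18 against 1.47 for Mmp13. Others were larger, such as 0.14 against 0.13 for Adamts2. Of the 60 members 36 were higher and 24 lower at 21 days, where 46.5% of all genes were higher, and the median of their log2 differences was 0.018 beside -0.0093 over all genes. This split rests on small differences: it was 26 higher and 34 lower after the median of each array was subtracted, and 30 and 30 after quantile normalization.

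The size of a few differences stood out more than their number. Differences of at least 2-fold were measured for 3 members, against 0.427% of all genes, and of at least 1.5-fold for 5, against 1.52%. The 3 were Mmp9 and Mme, higher at 21 days, and Mmp16, lower. Both ages were fully separated in 7 members, against 5.72% of all genes. Of these 3 were higher and 4 lower, directions in which 2.74% and 2.98% of all genes were without overlap. In 21 members all 3 pairs of arrays with the same number differed in one direction, 13 higher and 8 lower at 21 days, against 25.2% of all genes.

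**Figure D2:**
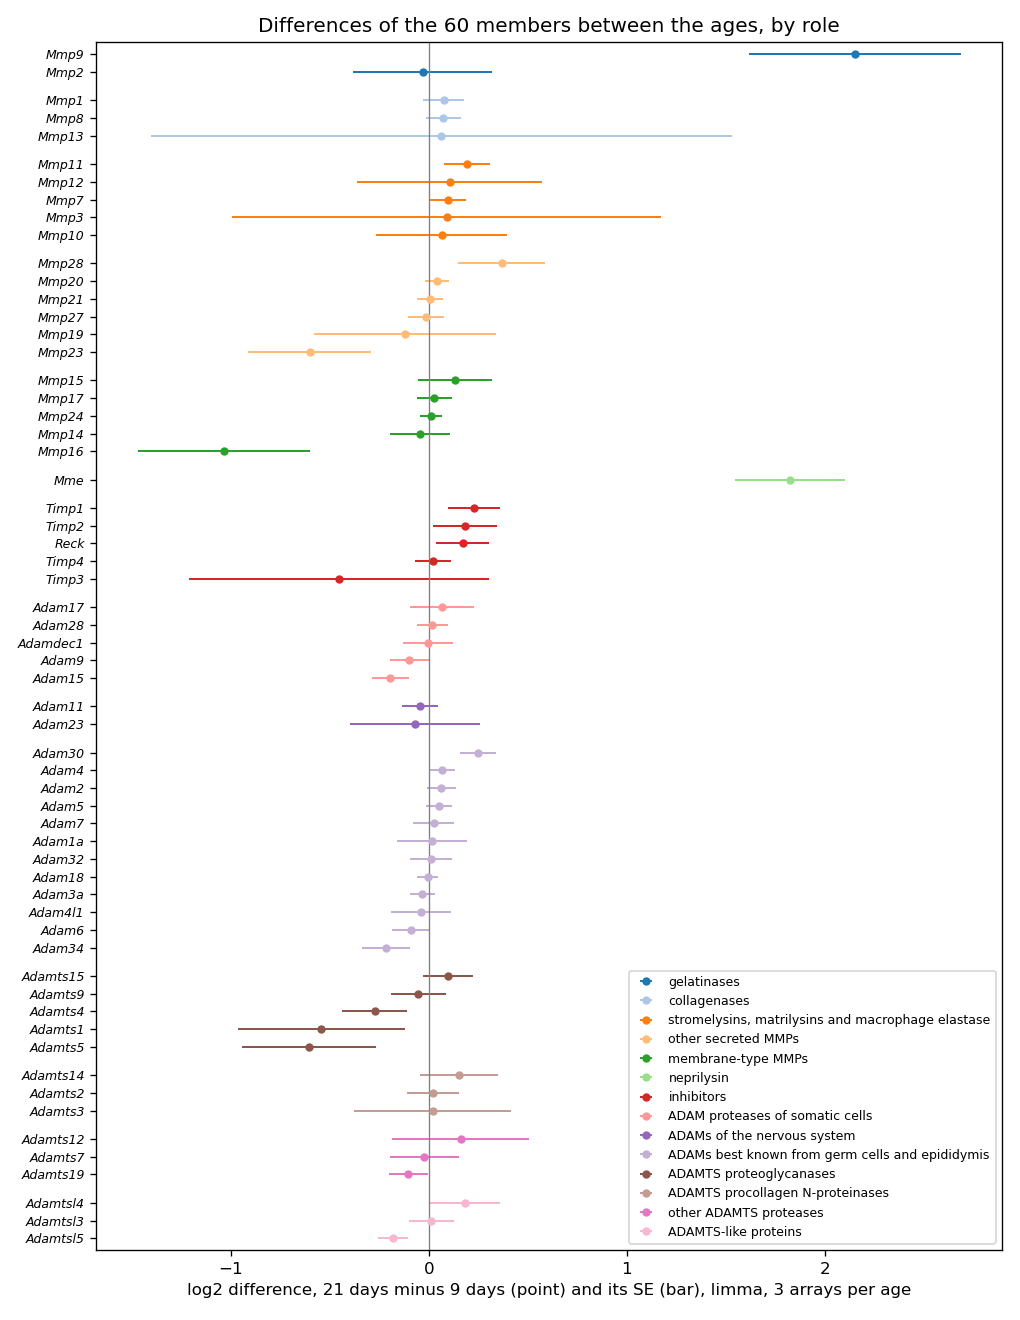
Log2 difference between the ages (21 days minus 9 days, horizontal axis) for each of the 60 members, grouped and coloured by role. Points are the differences and bars their SE from limma without the replicate block, with 3 arrays per age. Mmp9 and Mme lie far to the right, at 2.15 and 1.82, Mmp16 lies far to the left, at -1.04, and Mmp13 and Mmp3 have the widest bars.

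The gelatinases, which cut denatured collagen and the type of collagen found in basement membranes, behaved differently from each other. Mmp9, gelatinase B, was at 4.87, 6.68 and 5.05 at 9 days and at 7.13, 8.10 and 7.82 at 21 days. Every older array lay above every younger one, although the younger array numbered 2 came close. The difference was 2.15 ± 0.54 (log2, SE, n = 3 each), or 4.44-fold, with an adjusted p of 1.00 in limma and of 0.347 with the replicate number as a block. Within the pairs of the same number Mmp9 was higher at 21 days by 2.26, 1.42 and 2.77. Without any single array the difference lay between 1.82 and 2.72, and without both arrays numbered 3 it was 1.84.

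Mmp2, gelatinase A, was at 10.36, 10.93 and 10.09 at 9 days and at 10.40, 11.03 and 9.86 at 21 days, among the highest signals of the arrays at the 98.9th percentile of gene means. The ages overlapped throughout, with a difference of -0.031 ± 0.35 (log2, SE) whose sign turned without 21-day-old replicate 3 (0.25). At both ages it was highest in the array numbered 2 and lowest in that numbered 3.

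Mmp9 is also known as an enzyme of neutrophils and macrophages, so their markers were read beside it. Of 12 measured macrophage markers 6 were higher and 6 lower at 21 days, and the list mean lay between 3.39 and 3.46 at 9 days and between 3.44 and 3.46 at 21 days. All but 1 of the 12 had a mean below the medians of all arrays. The exception was Cd14, which also occurs on other cells and lay between 7.38 and 8.21. The pan-leukocyte gene Ptprc lay between 2.49 and 2.72, below the lower quartiles of all arrays. All 7 neutrophil markers had means below the medians, with a list mean between 2.64 and 2.69 at 9 days and between 2.63 and 2.69 at 21 days. Of the Sertoli markers given above, 13 of 15 were higher at 21 days, against 46.5% of all genes, with a median difference of 0.23 (log2). Without Tf their list means overlapped between the ages. The list mean was highest in the array numbered 2 at 9 days, as Mmp9 was. At 21 days it was highest in the array numbered 3, at 6.17, whereas Mmp9 was highest in that numbered 2, at 8.10. Of the fibroblast markers 3 of 8 were higher, Dpt among them, and 5 lower, with a median difference of -0.080 (log2). The 2 fibroblast markers without overlap between the ages were both lower at 21 days, as were 2.98% of all genes. The part of either cell type in the Mmp9 difference was not tested.

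Neprilysin, the product of Mme, is a membrane peptidase that degrades small signalling peptides. Mme was at 4.69, 5.19 and 4.61 at 9 days and at 6.20, 6.63 and 7.15 at 21 days. The ages were separated by 1.00 between the highest younger and the lowest older array. The difference was 1.82 ± 0.28 (log2, SE, n = 3 each), or 3.54-fold, with an adjusted p of 1.00 in limma and of 0.347 with the replicate number as a block. It had the lowest unadjusted p of the members without the block, 0.00069. In the pairs it was higher at 21 days by 1.50, 1.43 and 2.54, without any single array it lay between 1.58 and 2.06, and without both arrays numbered 3 it was 1.47.

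Of the 5 measured membrane-type MMPs, which act at the cell surface, only Mmp16 differed by more than 1.5-fold. Mmp16, MT3-MMP, was at 6.95, 6.87 and 6.04 at 9 days and at 6.01, 6.01 and 4.72 at 21 days. The groups were separate by a narrow margin, since the younger array numbered 3 lay just above the older arrays numbered 1 and 2. The difference was -1.04 ± 0.43 (log2, SE), and the older level was 0.487 of the younger, with an adjusted p of 1.00 in limma and of 0.342 with the replicate number as a block. The pairs differed by -0.94, -0.85 and -1.32, without 21-day-old replicate 3 the difference was -0.61, and without both arrays numbered 3 it was -0.90. The Mmp16 signal was also lower in both arrays numbered 3, where smooth muscle markers were highest, and their part in it was not tested.

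Mmp14, MT1-MMP, which together with Timp2 activates the proenzyme of Mmp2, was at 10.22, 10.36 and 10.60 at 9 days and at 10.12, 10.36 and 10.57 at 21 days. Its difference was -0.043 ± 0.15 (log2, SE), and the sign turned without 21-day-old replicate 1 (0.074) or 9-day-old replicate 3 (0.059). Mmp15 differed by 0.13 ± 0.19, which was 0.0044 without 21-day-old replicate 2 and 0.050 without 21-day-old replicate 3. For Mmp17, which is held by a lipid anchor, and Mmp24 the differences were 0.029 ± 0.09 and 0.013 ± 0.06, and both signs turned under other settings, given at the end. All 3 of these genes had means below the medians of all arrays.

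**Figure D3:**
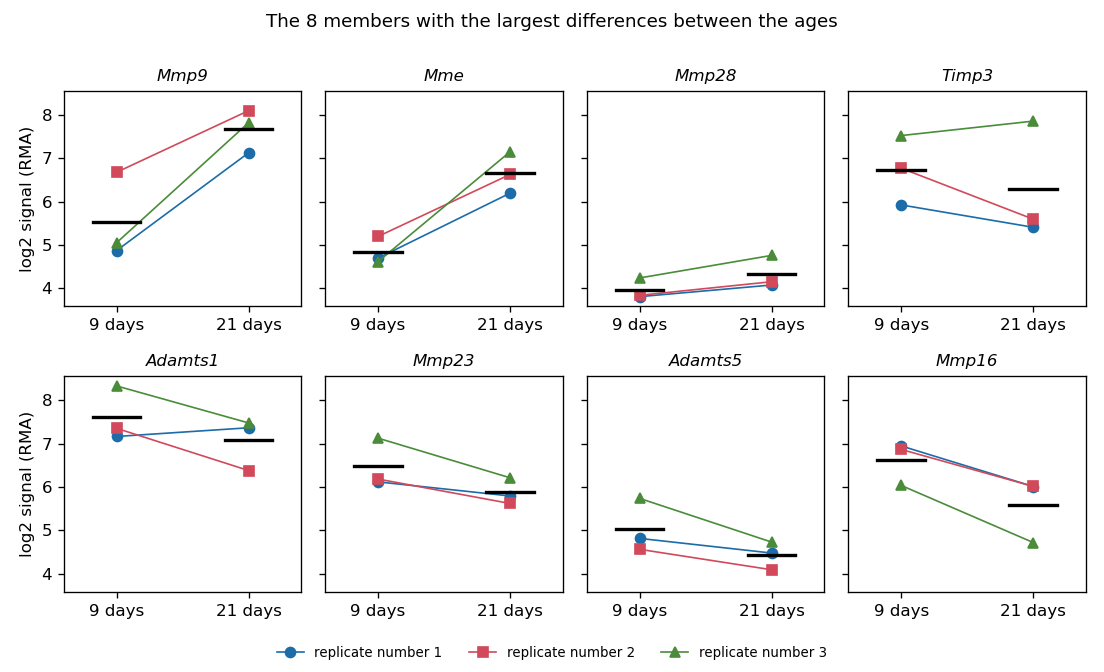
Log2 signal (vertical axis) at 9 and 21 days of the 8 members with the largest absolute differences; lines join arrays of the same replicate number and black bars are the means of 3 arrays. All 3 lines of Mmp9 and Mme go up and all 3 of Mmp16, Mmp23 and Adamts5 go down, while those of Timp3 and Adamts1 go both ways.

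Several secreted MMPs varied far more between replicate numbers than between ages. The range of the 3 means over replicate numbers, each the mean of the 9-day and 21-day array of that number, was at least 1 for 10 members, 16.7% of them, against 2.87% of all genes. In most members this range exceeded the age difference (54 of 60, 90.0%), and so it did in 85.0% of all genes. The 10 members were Mmp13, Mmp3, Timp3, Mmp9, Mmp19, Mmp12, Adamts3, Mmp16, Adamts1 and Mmp2. What a number stands for is not given in the sources used here.

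Mmp13, collagenase 3, which cuts fibrillar collagen, had the widest range of all members. It was at 6.27, 8.25 and 3.97 at 9 days and at 5.83, 8.60 and 4.25 at 21 days. The array numbered 2 was highest and that numbered 3 lowest at both ages, with a range of 4.31 over the numbers, or 19.8-fold, beside an age difference of 0.063 ± 1.47 (log2, SE). Mmp3, stromelysin 1, which degrades many matrix proteins and activates other proMMPs, was at 6.85, 9.28 and 7.32 at 9 days and at 7.25, 10.01 and 6.46 at 21 days. Here too the arrays numbered 2 lay above all others, and the range over the numbers was 2.75, or 6.74-fold, beside an age difference of 0.091 ± 1.08.

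The same arrays were highest for 2 members with low signals. Mmp12, macrophage elastase, was at 3.07, 3.72 and 3.17 at 9 days and at 2.74, 4.45 and 3.09 at 21 days, and its age difference of 0.10 ± 0.47 (log2, SE) was -0.41 without 21-day-old replicate 2. Mmp10, stromelysin 2, was at 2.61, 3.42 and 2.51 at 9 days and at 2.69, 3.45 and 2.60 at 21 days. Its signal outside the arrays numbered 2 was below the lower quartiles of all arrays. Mmp3, Mmp10 and Mmp13 were named after their values had been seen.

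A test of replicate number with age as the other term, chosen after the values had been seen, was run over all genes in limma. It called 1 member at an adjusted p under 0.05, Mmp13 (0.0412), against 0.0896% of all genes. The count depended on the setting: 8 members, against 3.65% of all genes, were called after the median of each array was subtracted, and 12 of the 28 members among the genes of the higher means, against 13.1%. Without the arrays numbered 3 no member was called, and neither was any other gene (0%). In the median-centred fit the adjusted p was 0.0389 for Mmp3 and 0.0296 for Mmp10, but 0.0903 for Mmp12.

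**Figure D4:**
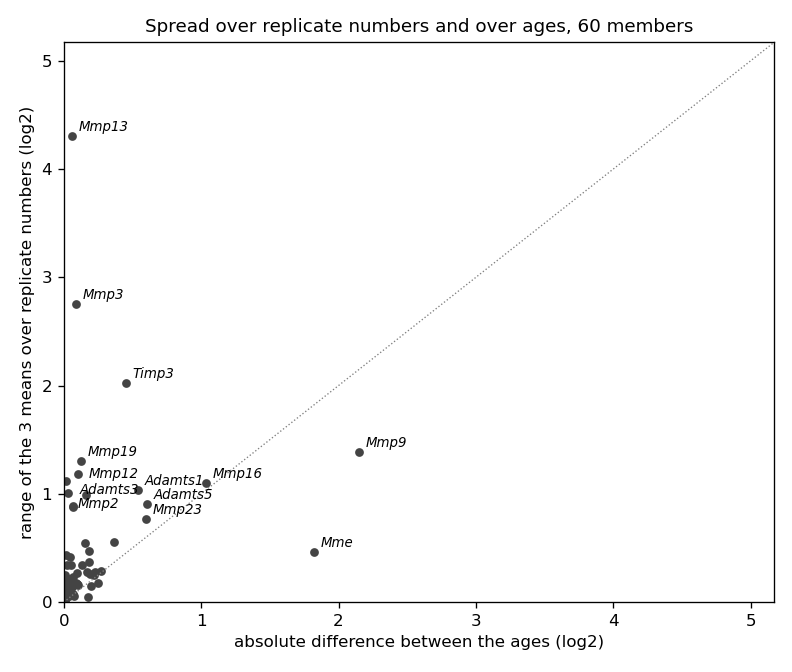
For each of the 60 members, the absolute difference between the ages (horizontal axis, log2) and the range of the 3 means over replicate numbers (vertical axis, log2); the dotted line marks equal values. Mmp13 and Mmp3 lie far above the line, at ranges of 4.31 and 2.75, whereas Mmp9 and Mme lie below it.

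Mmp13, Mmp12, Mmp3 and Mmp10 lie close together in the genome. In the RefSeq annotation of GRCr8 they belong to a run of 9 members on chromosome 8, in the order Mmp13, Mmp12, Mmp3, Mmp1, Mmp10, Mmp8, Mmp27, Mmp20 and Mmp7, with 1 other coding gene between Mmp12 and Mmp3. The remaining 5 of the run had low signals, between 2.21 and 2.99 in every array. Among them Mmp1, the interstitial collagenase, Mmp8, the neutrophil collagenase, and the matrilysin gene Mmp7 differed between the ages by 0.075 ± 0.11, 0.074 ± 0.09 and 0.096 ± 0.09 (log2, SE). The sign for Mmp1 turned without 21-day-old replicate 2 (-0.033), and Mmp8 differed by 0.027 without 9-day-old replicate 2, 0.045 without 21-day-old replicate 1 and 0.036 without 21-day-old replicate 2.

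**Figure D5:**
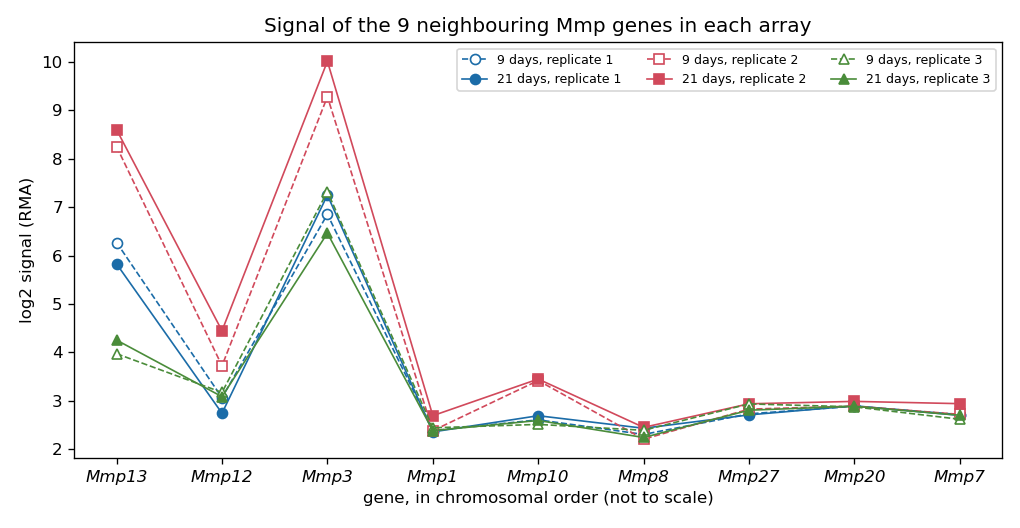
Log2 signal (vertical axis) of the 9 neighbouring Mmp genes on chromosome 8 in chromosomal order (horizontal axis, not to scale) in each array; dashed lines and open symbols are 9 days, solid lines and filled symbols 21 days, and colour and shape give the replicate number. For Mmp13, Mmp12, Mmp3 and Mmp10 the arrays numbered 2 are highest at both ages, and the other 5 genes stay between 2.21 and 2.99.

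Promoters of this run are shown because Mmp13, Mmp12, Mmp3 and Mmp10 in it were highest in the same arrays, a choice made after the values had been seen. The letters TGACTCA and TGAGTCA, each the reverse complement of the other and the classic element bound by AP-1 factors, were searched in the 250 bases before the annotated start. RefSeq promoters were found for 39 of the 60 members, including all 9 of the run but not Mmp9, Mmp2, Mmp14 or Mmp16, which were not searched. Either string of letters stood in 6 of the 9, in 0 of the 30 other members with a promoter and in 4.05% of all 33469 promoters of the table. The 9 are neighbouring genes of the same family and not independent promoters, and these shares were not tested. The 150 bases before the start of the 6 read as follows, 5′ to 3′ on the strand of the gene in GRCr8, with the element in capitals:
Mmp13, chr8:12782679-12782828, + strand: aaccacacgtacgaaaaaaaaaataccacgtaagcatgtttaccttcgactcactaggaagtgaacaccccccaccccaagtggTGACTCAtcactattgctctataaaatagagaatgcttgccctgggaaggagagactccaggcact
Mmp12, chr8:12866502-12866651, + strand: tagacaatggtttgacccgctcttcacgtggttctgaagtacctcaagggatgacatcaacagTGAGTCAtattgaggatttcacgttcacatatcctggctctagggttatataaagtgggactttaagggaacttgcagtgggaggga
Mmp3, chr8:12925131-12925280, + strand: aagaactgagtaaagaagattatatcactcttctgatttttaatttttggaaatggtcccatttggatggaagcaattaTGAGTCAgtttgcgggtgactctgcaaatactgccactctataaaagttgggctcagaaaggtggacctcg
Mmp1, chr8:12943303-12943452, + strand: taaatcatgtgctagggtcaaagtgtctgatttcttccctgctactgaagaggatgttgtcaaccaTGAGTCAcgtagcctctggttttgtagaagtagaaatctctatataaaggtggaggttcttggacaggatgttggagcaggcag
Mmp10, chr8:12974557-12974706, + strand: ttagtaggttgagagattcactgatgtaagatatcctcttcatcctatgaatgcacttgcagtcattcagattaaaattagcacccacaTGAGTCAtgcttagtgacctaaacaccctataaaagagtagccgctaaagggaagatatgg
Mmp7, chr8:13132893-13133042, + strand: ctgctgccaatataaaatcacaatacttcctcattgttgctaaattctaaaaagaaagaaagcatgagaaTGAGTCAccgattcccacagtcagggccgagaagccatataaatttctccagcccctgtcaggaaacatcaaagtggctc

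The element began 61 to 87 bases before the start in these 6 promoters. The letters TATAAA stood between it and the start in each, 32 to 47 bases before the start, and occur in the same 150 bases of 5.15% of all promoters, counted on the strand of the gene. Of the 6 genes Mmp13, Mmp3, Mmp12, Mmp10 and Mmp7 were highest in the arrays numbered 2 at both ages. For Mmp7 this was at low signals, between 2.62 and 2.94, and at 9 days replicate 2 was at 2.721 against 2.717 in replicate 1. Mmp1 had low signals in all arrays. The same arrays were also highest for searched members without these letters, Adamts3, Timp1 and Mmp11 among them, and Mmp20 of the run at low signals. A link between the letters and the arrays was not tested. A match of letters is a description and not a measured binding site, and no factor was measured here.

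Among the other secreted MMPs, Mmp23 and Mmp28 had the largest differences. Mmp23, which is anchored by its signal sequence until it is cut free and is best known from reproductive tissues, was at 6.12, 6.18 and 7.13 at 9 days and at 5.79, 5.62 and 6.21 at 21 days. It was lower at 21 days in each pair, by -0.33, -0.56 and -0.92, but the ages overlapped. The difference was -0.60 ± 0.31 (log2, SE), or -0.28 without 9-day-old replicate 3. Mmp28, epilysin, known from testis and skin, was at 3.80, 3.83 and 4.24 at 9 days and at 4.07, 4.15 and 4.76 at 21 days, and was higher in each pair. Its difference was 0.37 ± 0.22, or 0.15 without 21-day-old replicate 3, and its mean lay below the medians of all arrays. Both genes were highest at either age in the array numbered 3, as were the smooth muscle markers, whose part was not tested. Mmp11, stromelysin 3, differed by 0.19 ± 0.12, which was 0.075 without 21-day-old replicate 2. Mmp19 and Mmp21 differed by -0.12 and 0.0072. In the run, the enamel enzyme gene Mmp20 and Mmp27 differed by 0.040 and -0.014.

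Among the inhibitors Timp1 and Timp2 had some of the highest signals of the members, and they and Reck had small differences. Timp1, a secreted inhibitor of most MMPs, was at 11.84, 12.01 and 11.91 at 9 days and at 12.03, 12.41 and 11.99 at 21 days, at the 99.9th percentile of gene means. It was higher at 21 days in each pair, by 0.19, 0.41 and 0.08, while the ages overlapped, and the difference was 0.23 ± 0.13 (log2, SE), or 0.093 without 21-day-old replicate 2. Timp2, which inhibits MMPs and takes part in the activation of proMmp2, was at 9.88, 9.67 and 9.74 at 9 days and at 10.23, 9.99 and 9.63 at 21 days. Reck, a membrane-anchored inhibitor, was measured at 6.13, 6.06 and 6.08 in the younger cells and at 6.47, 6.34 and 5.98 in the older ones. Both were higher at 21 days in the pairs numbered 1 and 2 and lower in the pair numbered 3. Their differences were 0.18 ± 0.16 and 0.17 ± 0.13, and 0.043 and 0.068 without 21-day-old replicate 1.

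Timp3, which binds to the matrix and also inhibits Adam17 and several ADAMTS enzymes, varied most among the inhibitors. It was at 5.92, 6.77 and 7.52 at 9 days and at 5.41, 5.59 and 7.86 at 21 days. The arrays numbered 3 were highest at both ages, as were the smooth muscle markers in them, and the part of those cells in the signal was not tested. The difference of -0.45 ± 0.76 (log2, SE) rested on single arrays: it was -0.061 without 9-day-old replicate 3, -0.013 without 21-day-old replicate 1 and -0.11 without 21-day-old replicate 2. Timp4 lay between 3.21 and 3.46 in all arrays and differed by 0.022 ± 0.09, with a sign that turned in both rescalings and without 9-day-old replicate 1 or 21-day-old replicate 3.

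ADAM proteases of somatic cells had small differences between the ages. Adam17, the enzyme that sheds tumour necrosis factor and ligands of the EGF receptor, was at 7.80, 7.87 and 7.52 at 9 days and at 8.03, 7.52 and 7.84 at 21 days. The ages overlapped, and the difference of 0.066 ± 0.16 (log2, SE) turned without 9-day-old replicate 3 (-0.040) or 21-day-old replicate 1 (-0.050). Adam15, which carries an integrin-binding sequence, was at 5.29, 5.32 and 5.29 at 9 days and at 5.28, 5.04 and 4.99 at 21 days. Its ages did not overlap, but by a margin far smaller than the spread of the older arrays, and the difference was -0.19 ± 0.09. Adam9 differed by -0.098 ± 0.10, which was -0.014 without 21-day-old replicate 2 and -0.051 without 9-day-old replicate 3. Adam28 and Adamdec1, both known from lymphoid tissue, had means below the lower quartiles of all arrays. Adam10, the other main sheddase, was not analysed here. The nervous system genes Adam11 and Adam23, adhesion proteins without protease activity, differed by -0.044 ± 0.09 and -0.069 ± 0.33, and both signs turned when single arrays were left out.

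Among the 12 ADAMs best known from germ cells and the epididymis, such as the fertilin genes Adam1a and Adam2 and the sperm surface gene Adam3a, signals were low in every array. The means of all 12 lay below the medians of all arrays and those of 10 below the lower quartiles. By comparison 24.0% of all genes had means below the lower quartiles. Their list mean lay between 2.49 and 2.53 at 9 days and between 2.48 and 2.55 at 21 days. Marker lists of germ cells were low as well, with list means between 3.45 and 3.74 for spermatogonia and between 2.78 and 2.99 for spermatocytes and spermatids. The exception was Uchl1 of the spermatogonium list, which also occurs in other cells and lay between 7.68 and 8.43. Of the 12 genes 7 were higher and 5 lower at 21 days. The largest differences were 0.25 ± 0.09 (log2, SE) for Adam30, from 2.12, 2.13 and 2.33 to 2.33, 2.52 and 2.48, and -0.22 ± 0.12 for Adam34, or -0.091 without 9-day-old replicate 1. Adam4 did not overlap between the ages but differed by only 0.066 ± 0.07, and by 0.019 without 21-day-old replicate 3.

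ADAMTS proteoglycanases, which cleave aggrecan and versican, had lower values at 21 days in 4 of 5 members, where 53.5% of all genes had, and none had an adjusted p under 0.05 in limma. Their median difference of -0.27, beside the -0.0093 of all genes, was -0.089 without 21-day-old replicate 1. Adamts5 was at 4.81, 4.56 and 5.74 at 9 days and at 4.48, 4.09 and 4.73 at 21 days. It was lower in each pair, by -0.34, -0.47 and -1.01, while the ages overlapped, and the difference was -0.61 ± 0.34 (log2, SE), or -0.26 without 9-day-old replicate 3. Adamts1, its neighbour on the chromosome, was at 7.17, 7.36 and 8.33 at 9 days and at 7.37, 6.38 and 7.48 at 21 days. It was higher in the pair numbered 1 and lower in the others, with a difference of -0.54 ± 0.42, or -0.18 without 9-day-old replicate 3 and -0.19 without 21-day-old replicate 2. Both genes were highest at either age in the array numbered 3, as was the list mean of the smooth muscle markers. Of these 10 markers 9 were lower at 21 days, where 53.5% of all genes were. Only 2 of the 10 were lower without 9-day-old replicate 3, and 4 without 21-day-old replicate 2. The part of smooth muscle cells in the Adamts5 and Adamts1 signals was not tested. Adamts4 was at 4.03, 4.04 and 3.95 at 9 days and at 3.37, 3.94 and 3.90 at 21 days, without overlap, and differed by -0.27 ± 0.16, which was -0.089 without 21-day-old replicate 1. Adamts9 and Adamts15 differed by -0.053 and 0.096.

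The procollagen N-proteinases, which trim fibrillar procollagens, had small differences. Adamts14 differed by 0.15 ± 0.20 (log2, SE), a value of 0.026 without 9-day-old replicate 1 and 0.025 without 21-day-old replicate 3. Adamts2 differed by 0.022 ± 0.13, with a sign that turned when the median of each array was subtracted. Adamts3 was at 5.44, 5.70 and 4.86 at 9 days and at 5.31, 6.07 and 4.67 at 21 days, with the arrays numbered 2 highest and those numbered 3 lowest. Adamts12, which cleaves cartilage oligomeric matrix protein, was at 7.00, 7.32 and 8.02 at 9 days and at 7.11, 7.64 and 8.07 at 21 days. It was higher in each pair, but its spread over the numbers, 0.99, was far wider than the difference of 0.16 ± 0.34, which turned without 9-day-old replicate 1 (-0.064) or 21-day-old replicate 3 (-0.070). Adamts19 differed by -0.10 ± 0.10, which was -0.0004 without 21-day-old replicate 1. Of the ADAMTS-like proteins, which lack the protease and bind matrix microfibrils, Adamtsl5 was at 5.37, 5.32 and 5.46 at 9 days and at 5.17, 5.31 and 5.14 at 21 days, a difference of -0.18 ± 0.08 without overlap. Adamtsl4 differed by 0.18 ± 0.18, which was 0.057 without 21-day-old replicate 3 and 0.10 without 9-day-old replicate 2.

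Genes that activate, assist or are cut by these enzymes were read from 5 further lists, and 0 of their 80 measured members had an adjusted p under 0.05 in limma, where 0% of all genes did. At an unadjusted p under 0.05 there were 0, and 13 with the replicate number as a block, against the 2.97% and 7.73% of all genes. Of 21 activators and other inhibitors 14 were higher and 7 lower at 21 days. Serpinb2, an inhibitor of plasminogen activators, was at 3.90, 5.61 and 2.75 at 9 days and at 5.98, 7.07 and 3.49 at 21 days. Like Mmp13 and Mmp3 it was highest in the arrays numbered 2, yet it was also higher at 21 days in each pair, with a difference of 1.43 ± 1.12 (log2, SE), or 0.65 without 21-day-old replicate 2 and 0.76 without 9-day-old replicate 3. The testican gene Spock2 differed by 0.74 ± 0.37, which was 0.32 without 21-day-old replicate 3.

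Of 24 genes for proteins that ADAMs shed from the cell surface, 15 had higher values at 21 days, against the 46.5% of all genes, and none had an unadjusted p under 0.05 in limma. Without both arrays numbered 3 the count was 11 of 24, and the median difference of 0.066 was -0.022. The chemokine gene Cx3cl1 differed by 0.80 ± 0.41 (log2, SE), a value of 0.33 without 21-day-old replicate 3, and Kitlg, the ligand of the Kit receptor on germ cells, by 0.55 ± 0.25, which was 0.31 without 9-day-old replicate 3. Of 10 partners of ADAMs 6 were higher, among them Tspan17, a tetraspanin that binds Adam10, with 0.48 ± 0.23, or 0.27 without 21-day-old replicate 1. Pacsin3 in that list differed by -0.20 ± 0.14, which was -0.051 without 21-day-old replicate 3. Of 11 other enzymes of these superfamilies 7 were higher. Ece1, the endothelin-converting enzyme and a relative of neprilysin, differed by 0.40 ± 0.21, which was 0.18 without 21-day-old replicate 3, and the procollagen C-proteinase gene Bmp1 by 0.25 ± 0.30, with a sign that turned without that array (-0.046). Proteoglycans and other substrates were higher in 7 and lower in 7 of 14 cases, with -0.68 ± 0.46 for the fibrillin gene Fbn2, or -0.32 without 9-day-old replicate 3 and -0.35 without 21-day-old replicate 2, and -0.43 ± 0.47 for the fibulin gene Fbln2, or -0.012 and -0.18 without the same arrays.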

How the data were processed

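Total RNA of rat testis cells was hybridised to 6 Affymetrix arrays, and sample titles gave the age, 9 or 21 days, with 3 arrays each. The authors deposited log2 values from RMA, as the submitters' processing notes say; neither its version nor the array's genome build is given in the sources used here. RMA corrects background, normalizes by quantiles and summarises probe sets, sets no zero, and compresses low signals. Scan dates were not used, so batches were not tested.

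The platform annotation names 15310 probe sets with 1 gene; 323 with several genes and 13581 unnamed ones were left out. The probe set with the highest mean stood for a gene, which left 14506 genes and 60 members, 1 of them with more than 1 probe set. All 60 were found in RefSeq by Entrez number. The ages were compared in limma 3.58.1 (R 4.3.3) by lmFit and eBayes over all genes without covariates or a filter, with Benjamini-Hochberg adjustment and a threshold of 0.05. Within each age, deviations from the mean went together in arrays of one number, with correlations across genes of 0.439, 0.549 and 0.673, each above the limit of 0.1, so the numbers, which come from the titles, were taken to pair the arrays. The main fit did not use this pairing, whereas the fit with the replicate number as a block did. Leaving out 1 array left 2 at that age.

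The members, lists and tests were chosen with earlier results of these data known. Named by rule were Mme, Reck, the TIMPs, the gelatinases, the membrane-type MMPs, Adam17, up to 10 members in each direction without overlap, the 2 largest differences of each role and of each list. Alternatives were the replicate block, the 50% of genes with the highest means, 2 rescalings, averaging of probe sets, another variance model and leaving out arrays. The test was checked on simulated data. A planned search for the zinc-binding motif in protein sequences was not run. Promoters are those of RefSeq. Figures used matplotlib 3.10.9.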

Additional observations from a re-analysis of the deposited data

How the results depend on the processing

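No alternative gave a member, or any other gene, an adjusted p under 0.05 between the ages. The lowest adjusted p of a member in limma lay between 0.342, with the replicate number as a block, and 1.00. The number of members at an unadjusted p under 0.05 lay between 2 and 7. It was 2 without 9-day-old replicate 1 or 2, where 351 and 337 of all 14506 genes had such a p. With the replicate number as a block it was 7, against 7.73% of all genes. The median difference of the members lay between -0.012 and 0.045 and moved from its main value of 0.018 by less than the SD of 0.041 over the pairs of arrays. Of the 36 members named by rule 24 kept their sign in all 13 alternatives, Mmp9, Mme and Mmp16 among them, and in 31 leaving out some single array shrank the difference by over 1.5 times or turned it. The block changed no call and no difference, but it changed the SE. Each SE given with ± is from the fit without the block. With it the SE was 0.11 for Mmp16, 0.15 for Adamts5 and 0.18 for Mmp13, against 0.43, 0.34 and 1.47. For some members it was larger, such as Adamts2 with 0.14 against 0.13. The 7 members with an unadjusted p under 0.05 in the blocked limma fit were Mmp9, Mme, Mmp16, Mmp23, Mmp28, Adamts5 and Adam30.

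Over all 60 members 31 turned in some alternative, 19 of them not named by the rule; the largest difference among the 31 was 0.16 in size. Mmp13 ranged from -1.12 to 1.10, Mmp3 from -0.96 to 0.82 and Mmp19 from -0.43 to 0.30. After subtraction of the array medians, differences were -0.0034 for Adamts2, -0.012 for Mmp24 and -0.0037 for Timp4, and after quantile normalization -0.017 for Mmp24 and -0.019 for Timp4. With arrays left out, differences ranged from -0.065 to 0.19 for Adamts2, from -0.042 to 0.075 for Timp4, from -0.37 to 0.12 for Adam23, from -0.070 to 0.45 for Adamts12 and from -0.41 to 0.45 for Mmp12. They ranged from -0.036 to 0.099 for Mmp17, from -0.33 to 0.25 for Mmp2, from -0.063 to 0.21 for Adam17, from -0.15 to 0.074 for Mmp14, from -0.11 to 0.040 for Adam11 and from -0.033 to 0.14 for Mmp1. Members called by replicate number were 1 in the main fit, against 0.0896% of all genes. They were 12 among the genes of higher mean, against 13.1%, and 8 after subtraction of the medians, against 3.65%. After quantile normalization they were 4, against 1.45%, and with a trended robust prior 8, against 3.42%. Without the arrays numbered 3 they were 0, where 0% of all genes were called. This last fit had fewer arrays and the fit on higher means fewer genes. What changed the counts was not tested. These alternatives were chosen after seeing the data. With 3 arrays per age and no detection calls, small differences and low signals cannot be resolved.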
